A study of Mus musculus with 22 samples.

Results

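Inguinal subcutaneous fat (ingWAT) was compared with epididymal fat (epiWAT) of mice that carried Gipr-/- bone marrow, on 3 ingWAT and 4 epiWAT arrays out of the 22 arrays of the study. The arrays were chosen by their labels for depot and marrow, and all genes were described. All mice of the study were male C57BL/6J bone marrow chimeras, left 6 weeks for reconstitution and then kept for 14 weeks on food in which fat gave 60% of the calories. Gipr-/- marrow, which lacks the receptor of the incretin hormone GIP, went into wild-type (WT) recipients, so only cells derived from marrow lack the receptor and the fat cells of the host keep it. The other groups, used here only to set the depot difference beside others, were WT marrow in WT recipients (4 ingWAT and 4 epiWAT arrays) and Gipr-/-S100a9-/- marrow, called double-knockout marrow here (3 ingWAT and 4 epiWAT arrays). For double-knockout marrow the labels used here name no recipient. They also do not say which mouse each array came from, and the sample codes in the titles are not shared between depots. P-values therefore measure the spread between these samples.

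White fat lies in depots that arise from different mesoderm and keep regional transcription factors into adult life, among them Tbx15 and Shox2 in subcutaneous fat and Wt1 in visceral fat. Visceral pads such as the epididymal one are wrapped in mesothelium, a flat epithelium marked by uroplakins, while subcutaneous pads have no such covering. In obese mice epididymal fat is known for gathering macrophages, including lipid-laden ones that carry Trem2, and the inguinal pad holds a lymph node and lies on body wall muscle. All values below are levels on the deposited log2 scale or differences of such levels, always ingWAT minus epiWAT, so that 1 unit is a 2-fold change. Because whole tissue was measured, fewer cells of a type and less RNA per cell cannot be told apart.

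The marker of fat cells was high on every array: Adipoq, the adipocyte hormone adiponectin, lay between 18.88 and 19.37 on all 7 arrays. Gipr itself lay between 4.66 and 5.66, which does not check the marrow label because the host cells keep the gene. S100a9, a calgranulin of myeloid cells, lay between 5.35 and 6.98 in ingWAT and between 4.56 and 5.75 in epiWAT. Its difference of 0.98 (SE 0.44, adjusted p 0.297, limma) missed the threshold. S100a8, its partner, lay between 4.60 and 6.81 in ingWAT and between 5.39 and 7.86 in epiWAT, and that difference of -0.88 (adjusted p 0.55) missed it too. Array medians of the study ran from 6.11 to 6.54, and epiWAT array 1 had the highest.

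Some arrays stood apart by genes of tissues other than fat. The average of a list covers all its measured members, including those too low to test. These were 12 smooth muscle, 23 testis germ cell, 22 skeletal muscle and 21 epididymis genes. Smooth muscle genes (11 tested, a list written after the data had been seen) averaged 14.33, 14.79, 9.16 and 11.51 on epiWAT arrays 1 to 4 and 8.46, 9.18 and 9.34 on the ingWAT arrays, so epiWAT arrays 1 and 2 were far above the rest. Testis germ cell genes (14 tested) averaged 10.59 on epiWAT array 1 against 4.57, 4.36 and 5.85 on the other epiWAT arrays and 4.18 to 4.27 in ingWAT. The protamine gene Prm1, whose product packs sperm DNA, read 16.05 on that array. Skeletal muscle fibre genes (19 tested) averaged 6.59, 7.65 and 8.84 on ingWAT arrays 1 to 3 and 5.49 to 5.91 in epiWAT. The results below rest on all 7 arrays, and each median of a gene list is followed by its value without epiWAT arrays 1 and 2, an alternative chosen after seeing the data. Without them the medians of the skeletal muscle, testis and epididymis lists went from 2.22, -2.59 and -1.66 to 2.39, -0.93 and -0.70. Their part in the depot differences was not tested. Among the arrays used for comparison, some stood apart as well. IngWAT double-knockout arrays 1 and 3 did so by lymphoid genes. B cell and plasma cell markers averaged 9.29, 5.41 and 9.15 on ingWAT double-knockout arrays 1 to 3. T and NK cell markers averaged 8.55, 5.44 and 8.69 there, and lymph node stroma markers 8.21, 5.60 and 8.16. On all other arrays of the study these lists stayed at or below 7.28. Smooth muscle genes averaged 14.21 and epididymis genes 10.42 on epiWAT double-knockout array 1. Skeletal muscle fibre genes averaged 11.14, 13.03 and 13.80 on ingWAT WT arrays 1 to 3, and 11.44 on ingWAT double-knockout array 2.

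**Figure D1:**
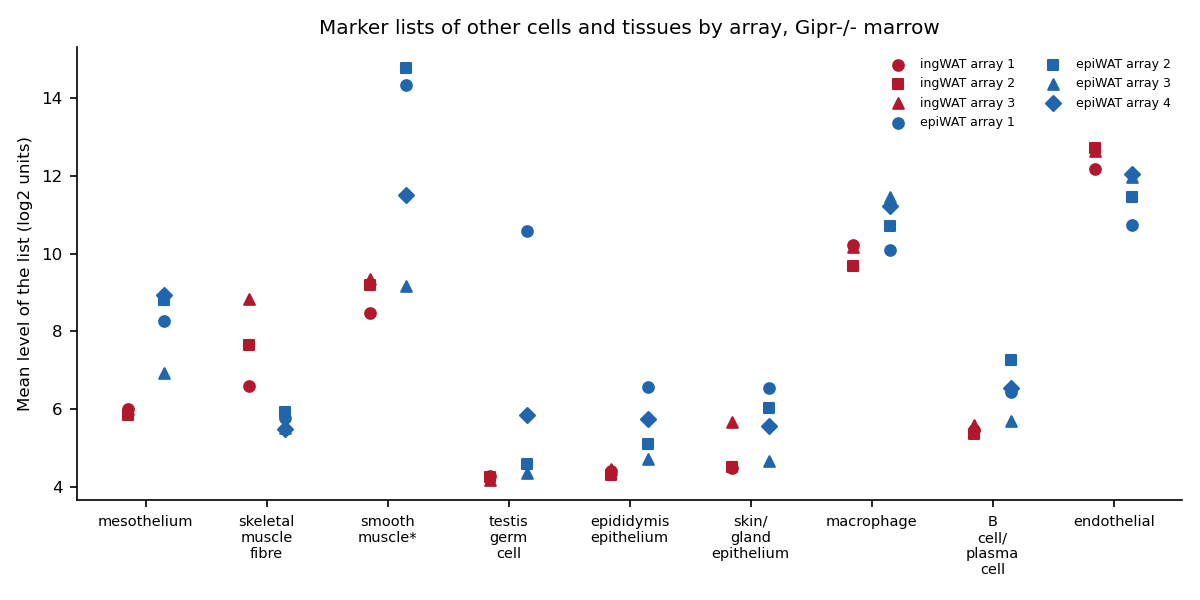
Mean level (log2 units) of 9 marker lists on each of the 7 arrays, ingWAT in red and epiWAT in blue, with a symbol per array; the asterisk marks a list written after the data had been seen. Smooth muscle genes sit at 14.33 and 14.79 on epiWAT arrays 1 and 2, testis germ cell genes at 10.59 on epiWAT array 1, and skeletal muscle fibre genes highest, at 8.84, on ingWAT array 3.

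Of 14502 genes tested, 89 (0.614%) differed between the depots at an adjusted p below 0.05 (limma, Benjamini-Hochberg, two-sided; called from here on). Of these, 52 (0.359%) were higher in ingWAT and 37 (0.255%) were higher in epiWAT. With each array centred on its median the split was 63 and 24. That setting moved the median depot difference over all 19337 genes, tested or not, from 0.06 to 0.20 log2 units. The called differences had sizes from 0.86 to 4.93 log2 units with a median of 1.73, and in 88 of the 89 the 3 ingWAT arrays did not overlap the 4 epiWAT arrays; Ugt8a was the exception. Arrays did not overlap for 16.8% of all tested genes (9.23% higher and 7.59% lower in ingWAT), so non-overlap by itself was common. At an unadjusted p below 0.05 (limma) there were 2190 of the 14502 tested genes, 1191 higher in ingWAT and 999 higher in epiWAT. Counts at an unadjusted p given below for gene lists are to be read beside that share, and several lists lay near it.

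The number of calls depended on single arrays. Without ingWAT array 1, 2 or 3 there were 35, 3 and 7 calls, and without epiWAT array 1, 2, 3 or 4 there were 12, 8, 159 and 14. All 89 differences kept their direction in each of these 7 fits. For all of them but Ugt8a this was fixed in advance, because their depots do not overlap, so it carries no weight. Akr1c18 and Wt1 were called in all 7, Nnat in 6, and Bche, Fbxl4, Rpsa and Tbx15 in 5, while 15 of the 89 were called in none, among them Trem2, Glipr1, Slc37a2, Asns and Rpl7. Without epiWAT arrays 1 and 2 together, 5 genes were called, of which 4 were among the 89 (Akr1c18, Wt1, Hpgds and Fbxl4).

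**Figure D2:**
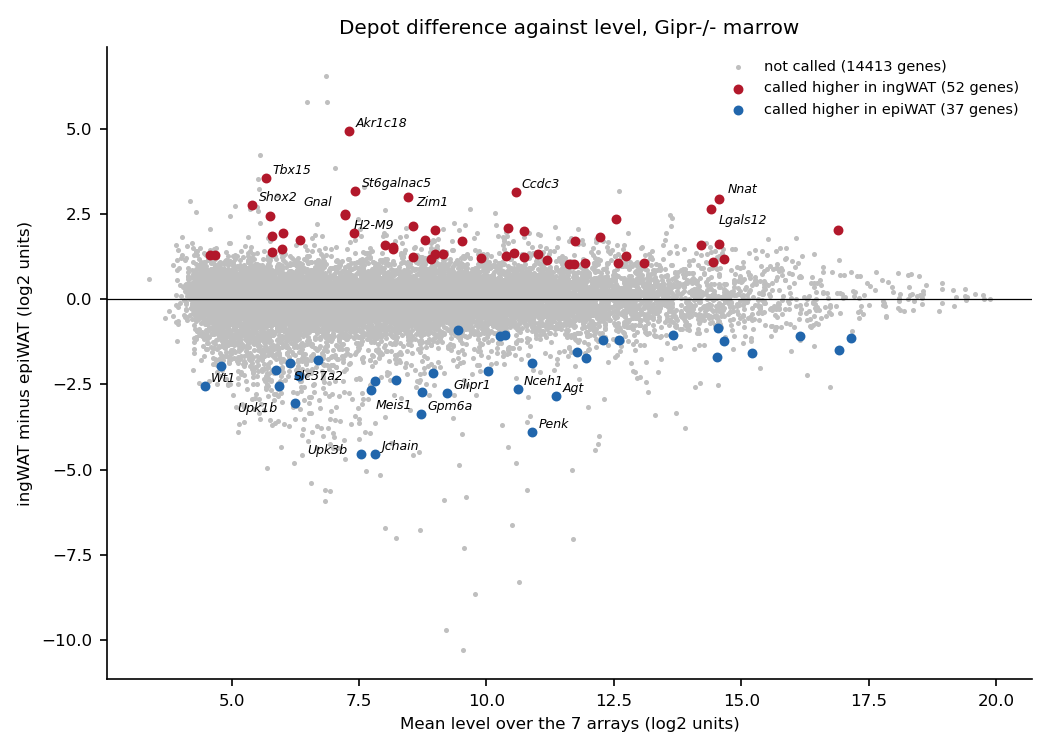
Depot difference (ingWAT minus epiWAT, log2 units) against the mean level over the 7 arrays (log2 units) for the 14502 tested genes; called genes are red (52, higher in ingWAT) or blue (37, higher in epiWAT) and the others grey. The largest differences were not called: the lowest grey point lies at -10.30 and the highest at 6.56.

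Of the regional transcription factors, Tbx15 and Shox2 were higher in ingWAT and Wt1 was higher in epiWAT. Tbx15, a T-box factor of subcutaneous fat, read 7.25, 8.01 and 7.84 on the ingWAT arrays and 3.81, 4.15, 5.04 and 3.61 on the epiWAT arrays. The depots did not overlap, and Tbx15 was higher in ingWAT (difference 3.55, SE 0.57, adjusted p 0.0119). Shox2, a homeobox factor of limb and body wall development, read 6.24, 7.91 and 6.83 in ingWAT and 3.39, 4.06, 5.04 and 4.40 in epiWAT. Its lowest ingWAT array lay above its highest epiWAT array, and it was higher in ingWAT (difference 2.77, SE 0.47, adjusted p 0.0173). Wt1, a zinc finger factor of mesothelium and of visceral fat progenitors, ran the other way. It read 3.38, 2.93 and 2.72 in ingWAT and 6.14, 5.55, 5.35 and 5.22 in epiWAT, higher in epiWAT without overlap (difference -2.56, SE 0.27, adjusted p 8.63e-05). For 6 of the 89 called genes, these 3 among them, the mean of the lower depot lay under 4.40, the lowest mean over 22 arrays that passed the filter. They passed it through the arrays where they are high, and with no detection calls used here their differences are of array signal, given without a fold. Folds given below for Akr1c18, Upk3b and Jchain rest on lower depot means of 5.20, 4.95 and 5.20. These lie above that level but under the lowest array median of 6.11, so those folds are of low signal too. Wt1 drops out where the lowest 50% of genes are left out and also with quantile normalization, so it lies close to the edge of the filter.

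Of the 9 tested factors on the inguinal patterning list, 2 were called (Tbx15 and Shox2) and 8 were higher in ingWAT, with a median difference of 1.03 against 0.02 over all tested genes; without epiWAT arrays 1 and 2 that median was 0.47 and neither gene was called (Tbx15 3.37, Shox2 2.27). Twist1 and Twist2, basic helix-loop-helix factors of mesenchyme, differed by 1.03 (adjusted p 0.202) and 1.25 (adjusted p 0.111). Irx3 differed by 1.16 (adjusted p 0.331). Meis2 differed by -1.99 (adjusted p 0.19), against the direction of the list's name. On the epididymal and visceral list Wt1 was the only called gene of 12 tested, and the median was -0.13 (0.01 without epiWAT arrays 1 and 2). Tcf21, a helix-loop-helix factor of visceral mesenchyme, read 4.36, 4.15 and 4.28 in ingWAT and 6.93, 7.56, 5.10 and 7.63 in epiWAT. The arrays did not overlap, yet its difference of -2.54 (SE 0.63, adjusted p 0.0711) missed the threshold. Gata4, Gata6 and Tbx5, further factors on that list, had differences of -0.15, -0.13 and 0.30. En1, an engrailed homeobox factor on the inguinal list, was too low to test, at 4.96, 4.16 and 4.51 in ingWAT and 3.79, 3.78, 4.53 and 4.20 in epiWAT.

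None of the 20 tested Hox genes, the homeobox genes that mark position along the body, was called (limma; 2 had an unadjusted p below 0.05). Hoxc10, a gene of the caudal end of its cluster, read 5.36, 6.96 and 6.79 in ingWAT and 4.46, 3.93, 6.50 and 5.84 in epiWAT, and the depots overlapped. Its difference was 1.19 (adjusted p 0.372), beside 3.15 (adjusted p 0.0101) with WT marrow and 3.09 (adjusted p 0.0122) with double-knockout marrow. Hoxb6 read 4.07, 4.78 and 4.25 in ingWAT and 8.24, 7.86, 4.80 and 5.94 in epiWAT. Its epiWAT arrays 1 and 2, the arrays high in smooth muscle genes, were also the highest for Hoxb6 (difference -2.35, adjusted p 0.366; -1.01 without them). The same arrays stood above the others for Hoxd11, a gene of limb and urogenital development that was too low to test. Hoxd11 read 7.80 and 8.29 there, 3.64 and 3.39 on epiWAT arrays 3 and 4, and 2.69, 3.24 and 3.03 in ingWAT. Hoxc8 lay between 10.29 and 12.91 on all 7 arrays with a difference of 0.60 (adjusted p 0.619). Median differences of the clusters were 0.12 for Hox A, -0.53 for Hox B, 0.47 for Hox C and -0.01 for Hox D. Without epiWAT arrays 1 and 2 they were -0.13, 0.10, 0.16 and 0.35, so the sign turned for Hox A, Hox B and Hox D.

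Promoter sequence of 4 called genes is shown, each as an example of a group described here. They are Shox2 for patterning, Akr1c18 for the largest call, Upk3b for mesothelium and Agt for secreted factors. Shox2 and Agt did not lead their groups, as Tbx15, Wt1 and Nnat had lower adjusted p (limma). Tbx15 and Wt1 had no entry among the promoter sequences used. Each run holds the 250 bases before the RefSeq start of the gene (GRCm38.p6), 5′ to 3′ on the strand of the gene, with matches to TATAAA (the TATA box) or GGGCGG (the GC box) on either strand in capitals.
Shox2, chr3:66981772-66982021, minus strand: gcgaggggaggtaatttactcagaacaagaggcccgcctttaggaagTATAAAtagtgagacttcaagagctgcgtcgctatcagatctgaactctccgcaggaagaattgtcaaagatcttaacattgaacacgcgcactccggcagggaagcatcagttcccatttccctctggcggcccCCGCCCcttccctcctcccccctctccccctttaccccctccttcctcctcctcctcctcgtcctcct
Akr1c18, chr13:4150647-4150896, minus strand: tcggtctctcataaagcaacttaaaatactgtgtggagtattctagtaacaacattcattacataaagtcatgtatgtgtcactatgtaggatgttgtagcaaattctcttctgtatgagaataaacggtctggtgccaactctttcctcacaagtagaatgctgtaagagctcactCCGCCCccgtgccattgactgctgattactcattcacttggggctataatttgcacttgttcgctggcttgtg
Upk3b, chr5:136038246-136038495, plus strand: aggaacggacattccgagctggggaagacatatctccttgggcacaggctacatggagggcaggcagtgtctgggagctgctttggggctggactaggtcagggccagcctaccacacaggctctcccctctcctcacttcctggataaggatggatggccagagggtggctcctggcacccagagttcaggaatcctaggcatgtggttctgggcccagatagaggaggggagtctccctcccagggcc
Agt, chr8:124569707-124569956, minus strand: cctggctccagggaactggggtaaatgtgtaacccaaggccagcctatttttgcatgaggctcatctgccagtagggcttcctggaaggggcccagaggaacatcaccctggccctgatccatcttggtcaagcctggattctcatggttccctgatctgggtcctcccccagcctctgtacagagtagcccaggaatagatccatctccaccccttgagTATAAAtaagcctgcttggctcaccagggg
The Agt window holds TATAAA at position -30 from the start, the Shox2 window holds it at position -203, and the GC box lies on the opposite strand in the windows of Shox2 and Akr1c18. No match to either motif is in the Upk3b window. Among the called genes with an entry, GGGCGG was present in 30 of 44 windows (68.2%) of genes higher in ingWAT and in 5 of 25 (20%) of genes higher in epiWAT, beside 56.4% of the 11689 tested genes with an entry. TATAAA was present in 6 (13.6%) and 5 (20%) of them, beside 10.6%. CCAAT was present in 13 (29.5%) and 11 (44%), beside 40.1%, and the E-box CACGTG in 3 (6.82%) and 2 (8%), beside 8.97%. These are counts of letters on both strands, where a base may belong to matches of more than 1 motif, and they were not tested.

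Genes higher in ingWAT were led by Akr1c18, which encodes 20-alpha-hydroxysteroid dehydrogenase, an enzyme that inactivates progesterone. It read 11.12, 9.48 and 9.78 in ingWAT and 4.17, 4.70, 6.17 and 5.75 in epiWAT. The lowest ingWAT array lay over 3 units above the highest epiWAT array, and Akr1c18 was 30.5-fold higher in ingWAT (difference 4.93, SE 0.52, adjusted p 8.63e-05). Nnat, which encodes the imprinted membrane protein neuronatin, read 15.92, 15.57 and 17.24 in ingWAT and 12.62, 13.08, 13.60 and 13.96 in epiWAT. It was 7.62-fold higher in ingWAT without overlap (difference 2.93, SE 0.44, adjusted p 0.00852). Zim1, an imprinted zinc finger gene next to Peg3, read 9.57, 11.16 and 9.77 in ingWAT and 5.96, 7.01, 8.55 and 7.19 in epiWAT (difference 2.99, SE 0.67, adjusted p 0.047). Of the 16 tested genes on the list of imprinted and mesoderm growth genes, which leaves out Zim1, Nnat alone was called, 12 were higher in ingWAT and the median was 0.51 (0.23 without epiWAT arrays 1 and 2).

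Lgals12 encodes galectin-12, a lectin of the lipid droplet in fat cells. It read 15.95, 15.72 and 16.04 in ingWAT and 11.62, 13.65, 14.44 and 13.36 in epiWAT, a 6.21-fold difference (2.63, SE 0.58, adjusted p 0.0448). EpiWAT array 1, which had germ cell and smooth muscle genes, was the lowest. Ccdc3, a secreted protein of endothelium and fat, read 12.83, 11.73 and 12.53 in ingWAT and 7.15, 9.93, 10.04 and 9.78 in epiWAT (difference 3.14, SE 0.67, adjusted p 0.0403). Again epiWAT array 1 was lowest, far below the other 3. St6galnac5, a sialyltransferase that acts on gangliosides, read 9.81, 8.53 and 9.35 in ingWAT and 4.94, 6.13, 6.87 and 6.35 in epiWAT (difference 3.16, SE 0.55, adjusted p 0.0173). Gnal, a stimulatory G protein alpha subunit known from olfactory neurons, was 5.61-fold higher in ingWAT (difference 2.49, SE 0.52, adjusted p 0.033), and its ingWAT arrays ran from 7.10 to 9.97. H2-M9, a nonclassical MHC class I gene, was 5.6-fold higher (difference 2.49, SE 0.51, adjusted p 0.033), and its near relatives in that family can share probe sequence.

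Further called genes, named here after their values were seen, fell into several roles. Dpt, the matrix protein dermatopontin, read 18.10, 17.66 and 18.40 in ingWAT and 14.94, 15.86, 16.43 and 16.91 in epiWAT (difference 2.02). Bche, butyrylcholinesterase, stayed between 11.80 and 11.94 in ingWAT and between 9.45 and 10.64 in epiWAT (difference 2.01, SE 0.32, adjusted p 0.0119). Igfbp3, a carrier of insulin-like growth factors, differed by 1.55, Slc27a1, a fatty acid transport protein, by 1.58, and Ifngr1, a chain of the interferon gamma receptor, by 1.62. Rarb, a retinoic acid receptor, differed by 1.38, Jag2, a Notch ligand, by 1.24 and Eif2ak3, the endoplasmic reticulum stress kinase PERK, by 1.20. Ndufs7, a subunit of complex I, differed by 1.84, Afg3l2, a protease of the mitochondrial inner membrane, by 1.26, Dnajc19 of the import motor by 1.27, and the carrier family members Slc25a16 and Mtch2 by 1.05 and 1.18. Smdt1, a subunit of the mitochondrial calcium uniporter, was called the other way, at -0.86. Myl4, a myosin light chain of atrial and embryonic muscle, read 9.87, 10.58 and 10.04 in ingWAT and 7.79 to 8.36 in epiWAT (difference 2.04). Beside it, skeletal muscle fibre genes had 0 calls of 19 (4 at an unadjusted p below 0.05) and a median of 2.22 (2.39 without epiWAT arrays 1 and 2). Ugt8a, which makes galactosylceramide, had 1 ingWAT array (5.79) below an epiWAT array (5.88) and still was called at 2.44.

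**Figure D3:**
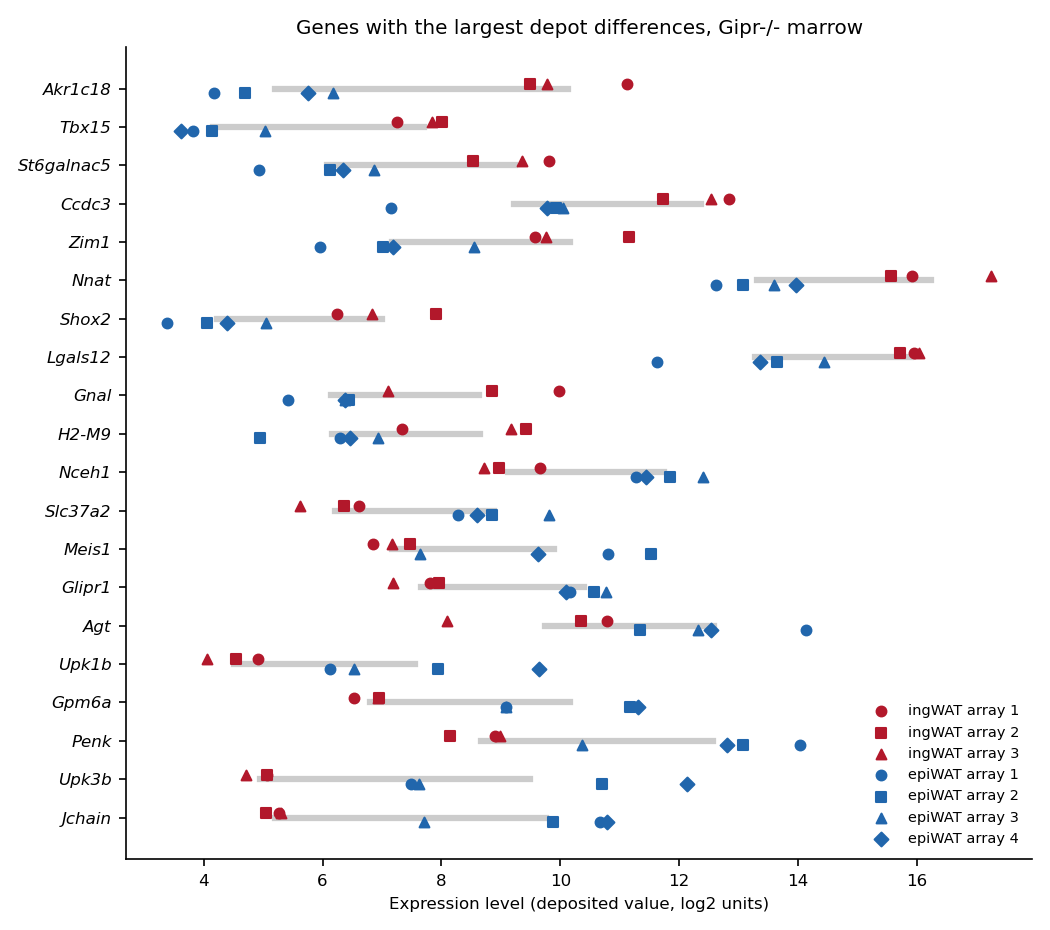
Level (log2 units) of the 10 genes with the largest called differences in each direction, on 3 ingWAT arrays (red) and 4 epiWAT arrays (blue); grey bars join the depot means. No gene shown has overlapping depots; Upk3b, Meis1, Upk1b and Penk have the widest spread (SD) among epiWAT arrays, with array 1 or array 3 lowest.

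Genes of mesothelium were higher in epiWAT: 4 of 14 tested list members were called (Wt1, Gpm6a, Upk3b and Upk1b), 12 of 14 were higher in epiWAT and the median difference was -3.06, or -2.26 without epiWAT arrays 1 and 2. Upk3b, a uroplakin of the mesothelial surface, read 5.06, 5.07 and 4.71 in ingWAT and 7.48, 10.71, 7.63 and 12.14 in epiWAT. It was 23.3-fold higher in epiWAT (difference -4.54, SE 0.85, adjusted p 0.0251), with arrays 2 and 4 well above arrays 1 and 3. Upk1b, a tetraspanin uroplakin, read 4.92, 4.54 and 4.05 in ingWAT and 6.12, 7.94, 6.53 and 9.64 in epiWAT, with the same 2 arrays on top (difference -3.05, SE 0.63, adjusted p 0.033). Gpm6a, a membrane glycoprotein, read 6.54, 6.94 and 6.94 in ingWAT and 9.08, 11.18, 9.08 and 11.30 in epiWAT (difference -3.36, SE 0.57, adjusted p 0.0173). Smooth muscle genes averaged 14.33, 14.79, 9.16 and 11.51 on epiWAT arrays 1 to 4, so array 2 was high in both sets. A link between the 2 sets was not tested. Without arrays 1 and 2 the differences of Upk3b, Upk1b and Gpm6a were -4.94, -3.58 and -3.39, and their adjusted p missed the threshold there (0.0778, 0.109 and 0.0778; over all alternatives 0.000675 to 0.134, 0.00126 to 0.174 and 0.000666 to 0.107).

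The mean level of the mesothelium list was 5.84 to 6.01 in ingWAT and 8.26, 8.81, 6.93 and 8.93 in epiWAT. Msln, mesothelin, a surface protein of mesothelial cells, was not called (-0.90, adjusted p 0.322), beside -2.36 with WT and -1.75 with double-knockout marrow. Krt7, Krt8, Krt18 and Krt19, keratins that glandular epithelium also carries, had differences of -3.06, -3.50, -3.81 and -4.37 with adjusted p of 0.129, 0.259, 0.239 and 0.114. Beside them, genes of epididymis epithelium averaged 6.57, 5.10, 4.71 and 5.75 on the epiWAT arrays, with 0 of 14 called and 2 at an unadjusted p below 0.05. Bnc1, a zinc finger factor of mesothelium, was at 0.36 (adjusted p 0.651).

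Other genes higher in epiWAT included precursors of peptides. Penk, the precursor of enkephalin opioid peptides, read 8.90, 8.14 and 8.98 in ingWAT and 14.04, 13.07, 10.37 and 12.80 in epiWAT. It was 14.9-fold higher in epiWAT, with array 3 lowest (difference -3.90, SE 0.89, adjusted p 0.0497; -2.91 without arrays 1 and 2). Agt, angiotensinogen, the precursor of angiotensin, read 10.78, 10.35 and 8.10 in ingWAT and 14.13, 11.34, 12.32 and 12.53 in epiWAT. The gap between the depots was small, 10.78 against 11.34, and the difference was -2.84 (SE 0.64, adjusted p 0.0479; -2.68 without arrays 1 and 2). Meis1, a homeobox partner of Hox proteins, read 6.86, 7.48 and 7.17 in ingWAT and 10.81, 11.52, 7.64 and 9.62 in epiWAT. Its 2 highest arrays were 1 and 2, which also had the smooth muscle genes, and its difference went from -2.73 (SE 0.62, adjusted p 0.0479) to -1.46 without them. Glipr1 read 7.81, 7.96 and 7.18 in ingWAT and 10.17, 10.56, 10.77 and 10.10 in epiWAT, a 6.73-fold difference without overlap (-2.75, SE 0.60, adjusted p 0.0448) that was called in 0 of the 7 fits that leave out an array.

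Macrophage genes were mostly higher in epiWAT by size, with few calls. Trem2, a lipid receptor of macrophages, read 6.65, 6.49 and 6.17 in ingWAT and 8.63, 9.25, 9.15 and 8.32 in epiWAT. The depots did not overlap, at 5.29-fold (difference -2.40, SE 0.52, adjusted p 0.0407; -2.30 without arrays 1 and 2), but Trem2 was called in 0 of the 7 fits that leave out an array. Nceh1, a hydrolase of cholesterol esters in macrophages, read 9.65, 8.97 and 8.72 in ingWAT and 11.28, 11.84, 12.40 and 11.44 in epiWAT (difference -2.63, SE 0.49, adjusted p 0.0251). Slc37a2, a sugar phosphate exchanger of macrophages, read 6.62, 6.37 and 5.63 in ingWAT and 8.27, 8.84, 9.80 and 8.59 in epiWAT (difference -2.68, SE 0.57, adjusted p 0.0403), and was also called in 0 of those 7 fits. EpiWAT array 3, the lowest epiWAT array in smooth muscle and mesothelium genes, was the highest for Nceh1 and Slc37a2. Hpgds, which makes prostaglandin D, read 7.10, 6.83 and 6.71 in ingWAT and 8.30, 9.26, 10.29 and 9.12 in epiWAT (difference -2.36, adjusted p 0.0173). Ms4a7, a membrane protein of macrophages, differed by -2.10 and Lgmn, the lysosomal protease legumain, by -1.70; these 3 and Blnk, an adaptor of immune receptor signalling at -2.17, were named after their values were seen.

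Of 17 tested macrophage markers 0 were called (limma; 6 at an unadjusted p below 0.05), 15 were higher in epiWAT and the median was -1.01. Without epiWAT arrays 1 and 2 the median was -1.41. Adgre1, a surface receptor used to stain mouse macrophages, read 9.34, 8.75 and 9.09 in ingWAT and 9.90, 10.42, 11.32 and 11.38 in epiWAT, without overlap, and its difference of -1.70 (SE 0.55, adjusted p 0.164) missed the threshold. The mean of the list was 10.22, 9.69 and 10.18 in ingWAT and 10.10, 10.72, 11.46 and 11.23 in epiWAT, where array 1 lay inside the ingWAT range. Lipid-associated macrophage genes had 1 call (Trem2) of 16 and a median of -0.28 (-0.61 without epiWAT arrays 1 and 2), and Cd9, another gene on that list, was at -0.24. Neutrophil genes had 0 calls of 10 (3 at an unadjusted p below 0.05) and a median of -0.05 (-0.27 without epiWAT arrays 1 and 2). The 11 genes of MHC class II presentation were all higher in epiWAT by sign with 0 calls (4 at an unadjusted p below 0.05) and a median of -0.71 (-0.92 without epiWAT arrays 1 and 2); Ctss, cathepsin S, came nearest to the threshold (-2.30, adjusted p 0.06).

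Jchain, the joining chain of polymeric immunoglobulin made by plasma cells, had the largest called difference toward epiWAT. It read 5.26, 5.05 and 5.30 in ingWAT and 10.66, 9.87, 7.71 and 10.78 in epiWAT, 23.5-fold higher in epiWAT with array 3 lowest (difference -4.55, SE 0.90, adjusted p 0.0303). It was the only call among 12 tested B cell and plasma cell markers, whose median was -0.58, or -0.19 without epiWAT arrays 1 and 2, where Jchain itself was at -4.04 and not called. Cd79a, a chain of the B cell receptor, read 4.78, 5.29 and 4.68 in ingWAT and 6.61, 9.68, 4.79 and 7.03 in epiWAT (difference -2.11, adjusted p 0.432), highest on array 2. Ccl21a, a chemokine of lymph node stroma and lymphatic vessels, read 6.08, 6.89 and 7.11 in ingWAT and 11.30, 11.21, 9.40 and 14.27 in epiWAT. The depots did not overlap, and the difference of -4.85 (SE 1.40, adjusted p 0.115) missed the threshold. T and NK cell markers had 0 calls of 15 (1 at an unadjusted p below 0.05) and a median of -0.14 (-0.06 without epiWAT arrays 1 and 2). With WT marrow the medians of the B cell list and the T and NK list were -0.06 and 0.20. With double-knockout marrow they were 2.86 and 2.30, toward ingWAT, and -0.10 and -0.09 without ingWAT double-knockout arrays 1 and 3, the arrays high in these genes (an alternative chosen after seeing the data).

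Listed genes of the fat cell itself were mostly higher in ingWAT by sign, with 0 calls. The lists leave out Lgals12, which was called. Of 17 mature adipocyte genes 0 were called (limma; 3 at an unadjusted p below 0.05), while 16 were higher in ingWAT and the median was 0.62, or 0.24 without epiWAT arrays 1 and 2. Arrays did not overlap for 8 of them, all higher in ingWAT, beside 9.23% of all tested genes. The median of the list was -0.07 with WT and 0.46 with double-knockout marrow. Adipoq differed by 0.28 (adjusted p 0.623) and Lep, leptin, which lay between 18.22 and 18.75 on all 7 arrays, by 0.03 (adjusted p 0.983), with a sign that changed between settings. Lipe, hormone-sensitive lipase, read 17.12, 16.74 and 17.32 in ingWAT and 15.91, 15.99, 16.60 and 16.61 in epiWAT. These did not overlap, but 0.79 (adjusted p 0.327) missed the threshold, as did Pnpla2, adipose triglyceride lipase, at 0.71 (adjusted p 0.396). Fatty acid oxidation genes had 0 calls of 18 (7 at an unadjusted p below 0.05) with 17 higher in ingWAT and a median of 0.64, or 0.27 without epiWAT arrays 1 and 2. Oxidative phosphorylation (19 tested, median 0.17), lipogenesis (17 tested, 0.15) and lipolysis (14 tested, 0.34) had 0 calls each. They held 3, 5 and 3 genes at an unadjusted p below 0.05 (limma). Without epiWAT arrays 1 and 2 their medians were 0.12, -0.16 and 0.12. With WT marrow the medians of fatty acid oxidation, oxidative phosphorylation, lipogenesis and lipolysis were 0.32, 0.47, -0.34 and -0.03. With double-knockout marrow they were 0.47, 0.50, -0.32 and 0.53.

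Insulin signalling had 1 call of 19 and a median of 0.60 (0.37 without epiWAT arrays 1 and 2). That median was -0.02 with WT and 0.29 with double-knockout marrow. The called gene was Grb14, an adaptor that binds and restrains the insulin receptor. It read 8.37, 8.30 and 8.86 in ingWAT and 5.84, 7.37, 6.28 and 6.79 in epiWAT, all ingWAT arrays above all epiWAT arrays (difference 1.94, SE 0.38, adjusted p 0.0286). Insr, the receptor, differed by 0.28 (adjusted p 0.588) and Irs1, its substrate, by 0.69 (adjusted p 0.5). Among 20 adipokines and secreted factors Nnat was called toward ingWAT and Agt toward epiWAT. Asns, asparagine synthetase, a target of the amino acid stress factor ATF4, read 13.48, 13.07 and 12.999 in ingWAT and 12.06, 11.92, 11.98 and 12.53 in epiWAT. It was the only call among 18 genes of endoplasmic reticulum stress (difference 1.06, SE 0.24, adjusted p 0.0471), whose median was -0.32 (-0.36 without epiWAT arrays 1 and 2).

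Thermogenic and beige fat genes had 0 calls of 11 (2 at an unadjusted p below 0.05), with 10 higher in ingWAT and a median of 0.72 (0.45 without epiWAT arrays 1 and 2), beside 1.24 with WT and 0.89 with double-knockout marrow. Ucp1, the uncoupling protein of brown and beige fat, was too low to test. It read 3.39, 3.16 and 4.66 in ingWAT and 3.45, 4.28, 3.89 and 8.45 in epiWAT, so its highest value was on epiWAT array 4.

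The lists of stromal and vascular genes held 1 called gene. Timp1, an inhibitor of matrix metalloproteinases, read 4.89, 5.65 and 4.55 in ingWAT and 7.17, 7.83, 6.81 and 7.38 in epiWAT, a clear gap (difference -2.26, SE 0.41, adjusted p 0.0226). It was the only call among 25 genes of extracellular matrix and fibrosis; Col1a1, a collagen chain, was at 0.63 (adjusted p 0.427). Endothelial markers had 0 calls of 15 (limma, 6 at an unadjusted p below 0.05), with 14 higher in ingWAT. Their median was 0.92, or 0.42 without epiWAT arrays 1 and 2, beside 0.17 with WT and 0.38 with double-knockout marrow. Cdh5, VE-cadherin, read 15.38, 16.11 and 16.30 in ingWAT and 13.28, 14.71, 15.35 and 14.97 in epiWAT, which just failed to overlap (difference 1.35, adjusted p 0.305). Lymphatic endothelial markers (6 tested) had a median of -0.72 (-1.04 without epiWAT arrays 1 and 2) and 0 calls (2 at an unadjusted p below 0.05). Ccbe1, a factor of lymphatic vessel growth, was called at -1.78 and was named after its value was seen. Smooth muscle genes had 0 calls of 11 (7 at an unadjusted p below 0.05), all lower in ingWAT, and a median of -3.41, or -1.34 without epiWAT arrays 1 and 2.

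Genes of protein synthesis differed in small steps. Rpsa, a protein of the small ribosomal subunit, read 11.99, 11.53 and 12.21 in ingWAT and 13.23, 12.91, 13.22 and 13.08 in epiWAT (difference -1.20, SE 0.21, adjusted p 0.0173). Rpl7, of the large subunit, read 13.80, 13.96 and 14.13 in ingWAT and 15.64, 14.72, 15.19 and 15.24 in epiWAT (difference -1.23, SE 0.27, adjusted p 0.0455). In both, every epiWAT array lay above every ingWAT array. Of 61 tested ribosomal protein genes, a list written after the data had been seen, these 2 and Rpl23 (-1.58) were called, 57 were higher in epiWAT and the median was -0.73 (-0.70 without epiWAT arrays 1 and 2), beside -0.40 with WT and 0.50 with double-knockout marrow. Ribosomal protein genes have many near-identical processed copies that probes can share. Pabpc1, the poly(A) binding protein, and Hnrnpc, which binds pre-mRNA, were called at -1.15 and -1.18 and were named after their values were seen.

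**Figure D4:**
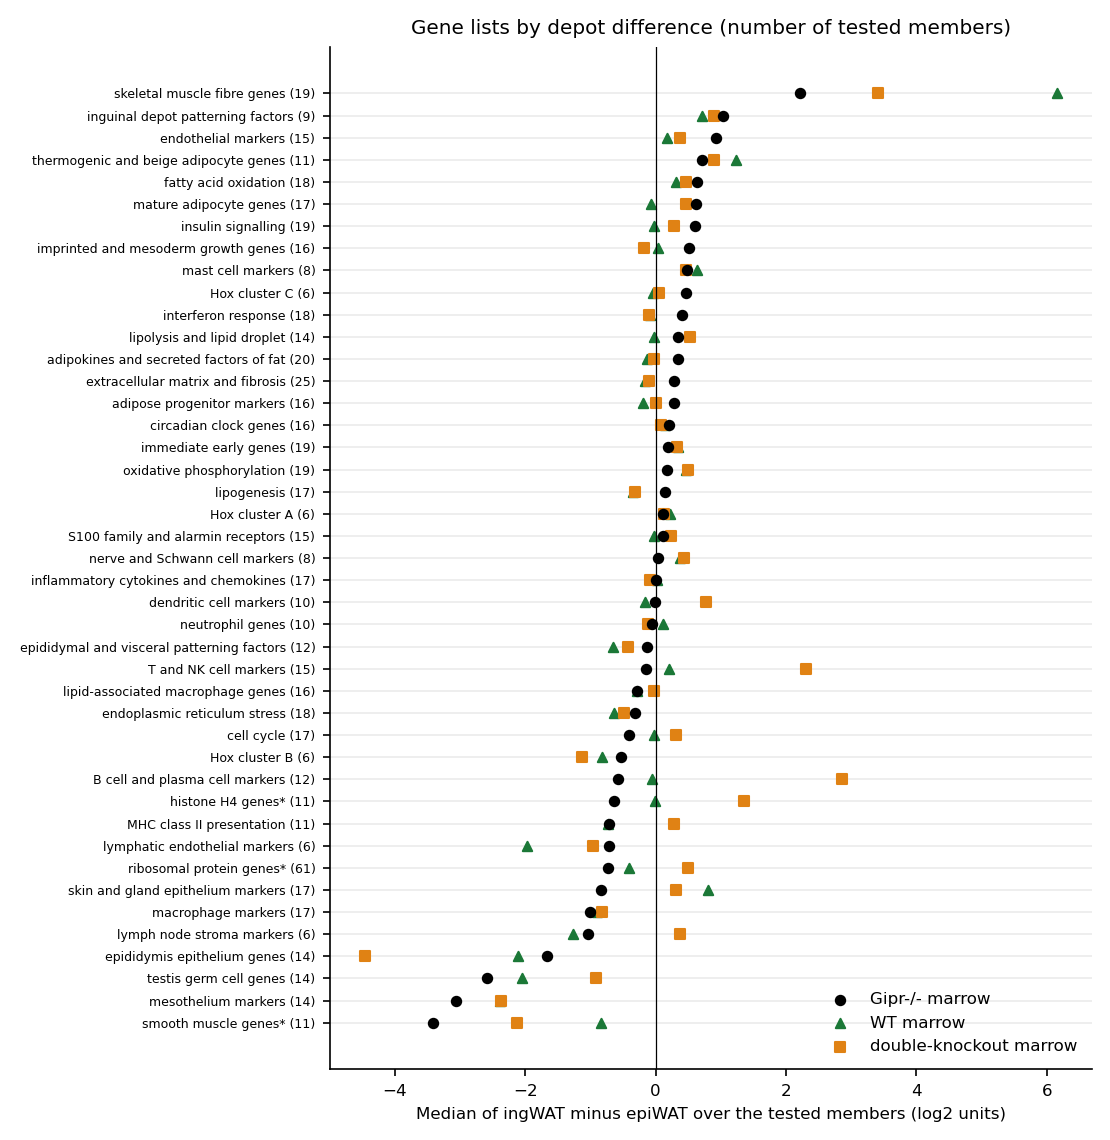
Median depot difference (ingWAT minus epiWAT, log2 units) over the tested members of each gene list, for Gipr-/- (black circles), WT (green triangles) and double-knockout marrow (orange squares); numbers of tested members stand in brackets and asterisks mark lists written after the data had been seen. Mesothelium markers lie at -3.06, -2.39 and -2.37, while B cell and T and NK cell lists lie at 2.86 and 2.30 with double-knockout marrow, where ingWAT arrays 1 and 3 are high in these genes.

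Some of the largest differences were not called. There were 27 genes with a difference below that of Jchain that missed the threshold, in 24 of them the arrays did not overlap, and the highest epiWAT array was array 1 in 19, array 2 in 4 and array 4 in 4. Those named here were chosen after their values were seen. Serpina1f, a serpin family gene, read 3.50, 3.62 and 3.82 in ingWAT and 17.99, 17.69, 8.12 and 11.98 in epiWAT (difference -10.30, SE 2.62, adjusted p 0.0752). Actg2, smooth muscle gamma actin, read 5.17, 6.56 and 5.99 in ingWAT and 17.64, 17.95, 8.43 and 12.75 in epiWAT (difference -8.29, or -4.68 without arrays 1 and 2). Ptgs2, which encodes the prostaglandin synthase COX-2, read 5.51, 4.99 and 4.01 in ingWAT and 17.98, 17.76, 8.20 and 10.02 in epiWAT (difference -8.65). In all 3, epiWAT arrays 1 and 2 were highest and array 3 lowest of the epiWAT arrays. Toward ingWAT, 3 genes had larger differences than Akr1c18 without a call, and ingWAT array 3 was highest in each. Myh4, a fast myosin heavy chain of skeletal muscle, read 8.61, 9.32 and 13.87 in ingWAT and 3.75 to 4.26 in epiWAT (difference 6.56, SE 2.52, adjusted p 0.223).

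With WT marrow 286 genes (1.97%) and with double-knockout marrow 568 genes (3.92%) were called between the depots; the second count was 200 without ingWAT double-knockout arrays 1 and 3. These comparisons share no arrays with the one described here, though all 22 arrays share an estimate of the spread. Of the 89 genes, 20 were called the same way with WT marrow, 23 with double-knockout marrow, 16 with both and 62 with neither. The sign was shared by 83 with WT marrow and by 62 with double-knockout marrow. Shared signs over all tested genes were not counted, but their depot differences correlated with those of Gipr-/- marrow at r 0.563 (WT) and 0.483 (double-knockout). The count of 62 includes ingWAT double-knockout arrays 1 and 3, without which Glipr1 went from 0.89 to -1.32 with double-knockout marrow. The 16 genes were Agt, Ccbe1, Dpt, Gpm6a, Grb14, Gstm1, Kcnt2, Lgmn, Penk, Shox2, Spock2, St6galnac5, Tbx15, Upk1b, Upk3b and Wt1. They include the 3 called regional factors, the other 3 called mesothelial genes and both peptide precursors. Gstm1, a glutathione transferase, differed by -1.48, Kcnt2, a potassium channel, by -1.86, and Spock2, a matrix proteoglycan, by -2.55. Tbx15 differed by 3.55, 4.97 and 3.17 with Gipr-/-, WT and double-knockout marrow, Shox2 by 2.77, 2.33 and 2.57, and Wt1 by -2.56, -2.42 and -1.96. Upk3b differed by -4.54, -6.19 and -6.51 in the same order and Penk by -3.90, -5.07 and -4.56.

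Other genes differed more with Gipr-/- marrow by size. Akr1c18 averaged 10.13 ± 0.88 (SD, n = 3) in ingWAT with Gipr-/- marrow, 7.45 ± 0.81 (SD, n = 4) with WT and 7.66 ± 0.60 (SD, n = 3) with double-knockout marrow. In epiWAT it averaged 5.20 ± 0.92, 5.68 ± 0.21 and 5.39 ± 0.63 (SD, n = 4 each). Its depot differences were 4.93, 1.77 and 2.27, and the test of the first against the second missed the threshold (3.16, SE 0.70, adjusted p 0.273), as did the first against the third (2.67, SE 0.73, adjusted p 0.0881). Jchain differed by -4.55, -2.69 and -1.08. Slc37a2 differed by -2.68, -0.30 and -0.27, Ccdc3 by 3.14, 1.40 and 1.45, and Lgals12 by 2.63, 1.12 and 1.84. Since the 89 genes were picked by their size with Gipr-/- marrow, larger sizes there carry no weight: the median of the 52 genes higher in ingWAT was 1.60, 0.56 and 0.37, and that of the 37 genes higher in epiWAT was -1.95, -1.15 and -0.83. Conversely, 81 genes were called the same way with both other kinds of marrow, and 74 of them (91.4%) had that sign with Gipr-/- marrow. The matching share over all tested genes was not counted.

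**Figure D5:**
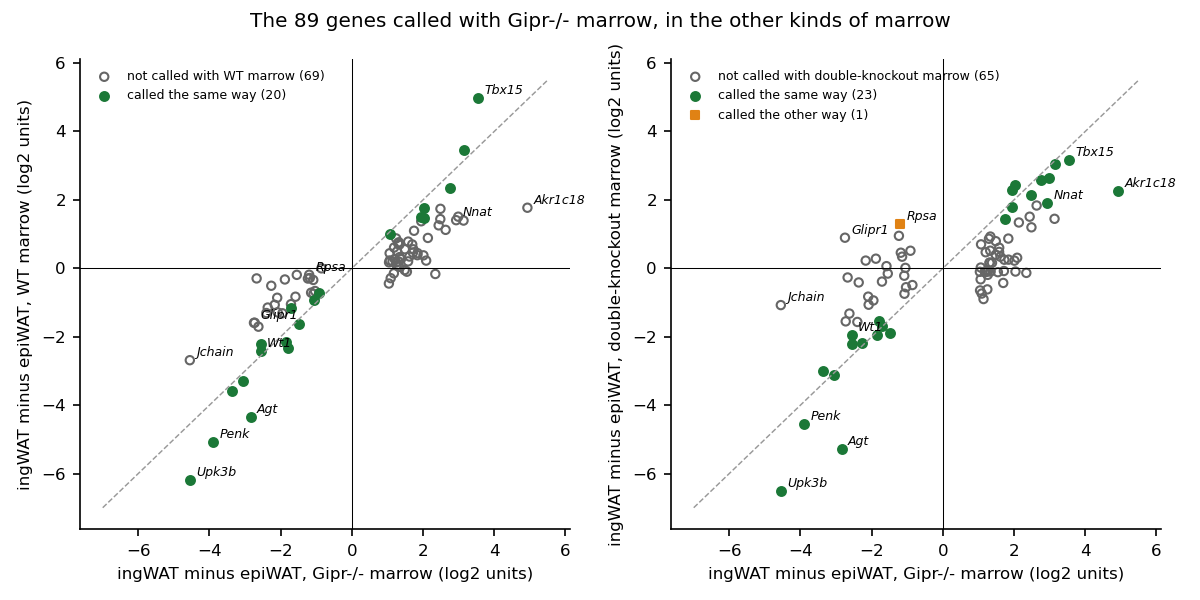
Depot differences (log2 units) of the 89 called genes with Gipr-/- marrow (horizontal) against WT marrow (vertical, left) and double-knockout marrow (vertical, right); green points were called the same way there (20 and 23), open points were not called, and the dashed line marks equal differences. Rpsa, in orange, is the gene called the other way with double-knockout marrow.

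The difference of the depot differences was tested directly. Against WT marrow 0 genes (0%) passed the threshold (limma; 1153 at an unadjusted p below 0.05, lowest adjusted p 0.053). Slc16a12, a creatine transporter, and Cpq, a plasma carboxypeptidase, were the nearest. Slc16a12 read 10.40, 10.97 and 10.39 in ingWAT and 8.92, 9.15, 8.86 and 9.67 in epiWAT with Gipr-/- marrow. The depot difference was 1.44 (adjusted p 0.0652) there, against -1.44 (adjusted p 0.0248) with WT and -1.83 (adjusted p 0.00798) with double-knockout marrow. Its ingWAT mean was 10.59 ± 0.33 (SD, n = 3) with Gipr-/- marrow, 8.86 ± 0.52 (SD, n = 4) with WT and 7.94 ± 0.66 (SD, n = 3) with double-knockout marrow. The test against WT marrow gave 2.88 (SE 0.47, adjusted p 0.053; 0.0279 to 0.34 over the alternatives). Cpq differed by 0.65, -0.91 and -0.75 in the same order of marrow, 1.56 against WT (SE 0.26, adjusted p 0.053).

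Against double-knockout marrow 104 genes (0.717%) passed, 54 with a more positive and 50 with a more negative difference with Gipr-/- marrow. That count was 5 without ingWAT Gipr-/- array 2 and 4 without epiWAT Gipr-/- arrays 1 and 2, and it was 7 and 542 without ingWAT double-knockout arrays 1 and 2, so it rested on few arrays. Without ingWAT double-knockout arrays 1 and 3, which were high in B cell, T cell and lymph node stroma genes, 5 genes passed; this fit takes the remaining ingWAT array to vary like the other groups. All 104 kept their sign there, Surf4 (1.85) and Rpsa (-2.50) included. They had been picked on arrays most of which this fit keeps, so the kept signs carry little weight. Surf4, a cargo receptor of the endoplasmic reticulum, averaged 12.86 ± 0.30 and 12.82 ± 0.11 in ingWAT and epiWAT with Gipr-/- marrow (SD, n = 3 and 4) and 11.61 ± 0.13 and 13.34 ± 0.22 with double-knockout marrow (SD, n = 3 and 4), a difference of differences of 1.77 (SE 0.24, adjusted p 0.00362). The depots were alike in level in the first case and apart in the second. Fbxl4, a mitochondrial F-box protein, read 11.43, 11.46 and 11.49 in ingWAT and 9.92, 10.65, 10.13 and 10.14 in epiWAT with Gipr-/- marrow, and differed by 1.25 there and by -0.62 with double-knockout marrow (1.87, SE 0.28, adjusted p 0.00856). Rpsa ran the other way, at -1.20 against 1.29 (-2.49, SE 0.29, adjusted p 0.000803). Its ingWAT mean was 11.91 ± 0.35 with Gipr-/- marrow and 14.02 ± 0.01 with double-knockout marrow (SD, n = 3 each).

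Slc16a12 (3.27), Gpc4, a glypican (2.47), and Cers4, a ceramide synthase (2.84), completed the 5 genes with the lowest p on the positive side. On the negative side stood Rpsa, Rpl7 (-2.18), B3gnt5, a glycosyltransferase of glycolipids (-4.35, or -2.31 without ingWAT double-knockout arrays 1 and 3), and the histone genes H4c12 (-2.42) and H4c3 (-2.45). Histone H4 genes encode the same protein from near-identical sequences, and 7 of the 11 tested passed together, so they are not 7 separate observations. Of the 61 ribosomal protein genes 8 passed. Histone H4 genes averaged 12.29, 11.95 and 12.07 on the ingWAT double-knockout arrays, against at most 11.22 on every other array of the study. Ribosomal protein genes averaged 13.89, 13.77 and 13.94 there, 12.50 to 13.13 on the other ingWAT arrays and 12.75 to 14.05 on the epiWAT arrays. The part of these high ingWAT double-knockout levels in the differences was not tested. Of the 89 genes called between the depots, 12 also passed here: Glipr1, Rpl7, Rpsa, Hnrnpc, Pabpc1, Kdm2a, Slc25a16, Gorasp2, Tax1bp3, Fbxl4, Afg3l2 and Ctnnbip1. Glipr1 differed by -2.75 with Gipr-/- marrow and by 0.89 with double-knockout marrow (-3.64, adjusted p 0.0499). It read 10.17, 6.97 and 10.43 on the ingWAT double-knockout arrays, high on the arrays with lymphoid genes, and without arrays 1 and 3 it differed by -1.32 with double-knockout marrow and the test gave -1.43. B3gnt5 was likewise high on those arrays, at 9.61 and 9.26 against 6.37.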

How the data were processed

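Each sample gave 100 ng of total RNA to a 1-colour whole-transcript Affymetrix array, per the labels' protocols. The authors deposited a table of 21793 features on a log scale, read here as log2 values; Partek 6.6 stands in the submitters' processing notes, and the log base and the normalization are not given in the sources used here, so every log2 difference and fold rests on that reading. Deposited values run from 1.92 to 19.9; arrays of a depot correlated at 0.914 to 0.983 and arrays of the 2 depots at 0.893 to 0.980, with 0 identical pairs. The platform annotation named 19341 features by 1 symbol and 2452 by none, and 4 second features of a gene were dropped, leaving 19337 genes.

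The lowest 25% of genes by mean over 22 arrays were left out, and 14502 were tested with limma 3.58.1 in R 4.3.3. The fit used 6 group means, eBayes with trend, Benjamini-Hochberg, a threshold of 0.05 and two-sided tests. In data simulated with an equal spread on all arrays, it recovered 22.2% of changes of 1 log2 unit and 73.3% of 2. Array weights of the real data ran from 0.359 to 2.88, which the simulation did not copy. Precision is limited by the number of arrays, as arrays have no read depth. Genes named by rule were the targeted genes, the 10 non-overlapping called genes with the largest difference in each direction, 2 anchors and up to 4 called genes per list, the Hox genes, and 5 genes per direction of each difference of depot differences; others are marked as chosen after their values were seen. The comparison and the gene lists were chosen with earlier results of these data known. Promoter windows came from RefSeq (GRCm38.p6). Alternatives covered scaling, filters, trend, array weights, unnamed features, the 7 arrays alone and left-out arrays.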

Additional observations from a re-analysis of the deposited data

Results flagged for a closer look

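Among the 4 epiWAT arrays, 10 of 200 series of values examined held an array far from the other 3 (Dixon's test; chance alone marks about 5 in 100 groups, as many as were found). Array 1 was lowest for Ccdc3 (7.15), Gnal (5.42) and the mean of the interferon response list (7.30). Array 2 was highest for B3gnt5 (7.24) and lowest for Prdx1, a peroxiredoxin (16.31). Array 3 was highest for Arap2 (8.83) and Dnajc19 (12.51) and lowest for Rhox4a2 (3.73). Array 4 was highest for Ucp1 (8.45) and Gm4788 (6.64).

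For 22 of the named genes the depot difference with Gipr-/- marrow differed from that with double-knockout marrow by the test of the difference itself (limma, adjusted p below 0.05; values are Gipr-/- minus double-knockout marrow). It was more positive with Gipr-/- marrow for Slc16a12 (3.27), Cers4 (2.84), Gpc4 (2.47), Ctnnbip1 (2.13), Tax1bp3 (2.04), Fbxl4 (1.87), Gorasp2 (1.83), Cpt1a (1.78), Surf4 (1.77), Slc25a16 (1.69), Afg3l2 (1.45) and Cpq (1.41). Cpt1a, the gate of mitochondrial fatty acid import, differed by 0.20 with Gipr-/- and by -1.58 with double-knockout marrow. It was more negative for Cxcl13 (-6.59), B3gnt5 (-4.35), Glipr1 (-3.64), Rpsa (-2.49), H4c3 (-2.45), H4c12 (-2.42), Rpl7 (-2.18), Hnrnpc (-1.64), Pabpc1 (-1.48) and Kdm2a (-1.42). Cxcl13, which attracts B cells, differed by -1.73 with Gipr-/- and by 4.87 with double-knockout marrow, beside medians of -0.58 and 2.86 for the B cell and plasma cell list. It read 15.97, 10.86 and 15.53 on the ingWAT double-knockout arrays, and arrays 1 and 3 were also high in B cell, T cell and lymph node stroma genes; without them Cxcl13 was at -3.33, B3gnt5 at -2.31 and Glipr1 at -1.43, and their part in these values was not tested further.

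Of the features without a gene symbol, 1725 were tested in a fit of all features and 14 were called, 3 of them higher in ingWAT.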

How the results depend on the processing

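No paired analysis was possible because the labels give no replicate numbers and share no sample code between the depots. The 89 calls became 57 with no filter on low values (22 higher in epiWAT), 623 with array weights (294 higher in ingWAT and 329 in epiWAT) and 11 with the 7 arrays alone (5 and 6); median centring gave 24 higher in epiWAT. Leaving out an array in turn gave 3 to 227 calls, 2 to 129 higher in ingWAT and 1 to 98 in epiWAT; arrays of the other marrows, left out as alternatives chosen after seeing the data, change the shared spread alone. Without epiWAT Gipr-/- arrays 1 and 2, also chosen after seeing the data, 5 were called (3 and 2). The 0 genes that differed from WT marrow became 2 with the lowest 50% left out, 28 with array weights, and 0 to 2 with an array left out. The 104 that differed from double-knockout marrow became 69 with no filter, 927 with array weights, 4 without epiWAT arrays 1 and 2, 5 without ingWAT double-knockout arrays 1 and 3 (also chosen after seeing the data), and 5 to 542 with an array left out. Reasons for these shifts were not tested. All 89 genes kept their sign with each of the 7 arrays left out, which was fixed in advance for all but Ugt8a by depots that do not overlap. Signs turned for 5 genes that were not called: Lep (-0.12 with quantile normalization, -0.05 with array weights, -0.07 to 0.17 with an array left out, -0.14 without epiWAT arrays 1 and 2), Hoxa10 (-0.88 to 0.54 with an array left out, 0.64 without both epiWAT arrays), Hoxb7 (0.11 without both), Surf4 (-0.13 to 0.14 with an array left out) and Gpc4 (-0.07 with array weights, -0.03 to 0.25 with an array left out, -0.05 without both). Akr1c18 stayed past the threshold in 17 of 17 alternatives and Wt1 in 15 of 15 in which it was tested. With quantile normalization and with the lowest 50% left out, Wt1 fell under the filter and was not tested.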

Other observations

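Further gene lists described tissue state rather than depot, and 0 of their genes were called (limma, as in the report). Cell cycle genes were lower in ingWAT for 14 of 17 tested, with 5 at an unadjusted p below 0.05 and a median of -0.41 (-0.51 without epiWAT arrays 1 and 2), beside -0.03 with WT and 0.32 with double-knockout marrow. Interferon response genes were higher in ingWAT for 15 of 18, with 2 at an unadjusted p below 0.05 and a median of 0.41, or 0.13 without epiWAT arrays 1 and 2, of which array 1 was the lowest on this list. Mast cell markers had a median of 0.48 (0.58 without epiWAT arrays 1 and 2) over 8 genes (2 at an unadjusted p below 0.05), beside 0.63 with WT and 0.47 with double-knockout marrow. Lymph node stroma markers were lower in ingWAT for all 6 tested (2 at an unadjusted p below 0.05), with a median of -1.04 with and without epiWAT arrays 1 and 2, beside -1.26 with WT and 0.38 with double-knockout marrow. Adipose progenitor markers had a median of 0.28 over 16 genes (3 at an unadjusted p below 0.05), or -0.02 without epiWAT arrays 1 and 2.

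Medians of the other lists lay near that of all tested genes. They were 0.00 for 17 inflammatory cytokines and chemokines, -0.01 for 10 dendritic cell markers, 0.20 for 16 circadian clock genes, 0.19 for 19 immediate early genes, 0.04 for 8 nerve and Schwann cell markers and 0.11 for 15 genes of the S100 family and alarmin receptors. At an unadjusted p below 0.05 these lists held 3, 2, 5, 3, 2 and 4 genes. Without epiWAT arrays 1 and 2 their medians were -0.37, -0.25, 0.05, -0.06, 0.28 and -0.29. Skin and gland epithelium markers had a median of -0.84 over 17 genes (3 at an unadjusted p below 0.05), or 0.03 without epiWAT arrays 1 and 2. Testis germ cell genes had a median of -2.59, or -0.75 without epiWAT array 1 and -0.93 without arrays 1 and 2, with 5 of 14 at an unadjusted p below 0.05.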
